A study of Paeonia lactiflora with 8 samples.

Results

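WRKY transcription factors were followed across root, young fruit, leaf and flower of herbaceous peony (Paeonia lactiflora Pall.), a plant whose root is a medicinal source of the monoterpene glycoside paeoniflorin. The members are the assembled genes whose symbol in the deposited table starts with WRKY and a number, 58 of 30177 IDs, and they carry 36 different symbols. Poly(A) RNA was sequenced from 2 biological replicates of each organ, 8 libraries in all, with root, leaf and flower taken at blossom and fruit at the young fruit period, so that organ and period cannot be told apart in any comparison with fruit. No cultivar, treatment or plant age is given in the sources used here. The question taken up is in which organ each WRKY ID was highest, with root and fruit set against leaf and flower. The plants behind the replicates are not described, so p-values measure the spread between these libraries.

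WRKY proteins are plant transcription factors named after a conserved run of amino acids next to a zinc finger, and they bind W-box elements in promoters. In Arabidopsis thaliana they fall into groups I, IIa to IIe and III by the number of WRKY domains, the zinc finger and sequence relatedness, and many act in defence, downstream of mitogen-activated protein (MAP) kinase cascades, in hormone cross-talk, in senescence and in mineral nutrition. The group IId proteins carry a calmodulin-binding region. Group and role are given here by the number in the symbol as for the Arabidopsis gene of that number; the table does not name the species behind a symbol, and a role in peony was not measured.

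The table gives the same gene ontology (GO) terms to IDs of 1 symbol, and all 58 IDs carry the term for sequence-specific DNA binding, which therefore follows from the name. The calmodulin-binding term stood on 9 IDs. A kinase term stood on 4 IDs, all named WRKY19, which in Arabidopsis is a fusion of a resistance-type receptor, a WRKY domain and a protein kinase domain, and 1 of them (comp22729_c0) is described as a NIMA-related kinase, so that a WRKY domain in these IDs is uncertain. WRKY16 (comp17651_c0) is likewise named after a fused resistance gene. Assembled length ran from 202 to 2719 bases (median 900) and 14 IDs were shorter than 500 bases. In 15 symbols several IDs shared the name, 37 IDs in all, and pieces of a single gene or near-identical copies may have divided reads between them. The same may hold for IDs that share a comp number under different symbols. These were comp4941_c0 (WRKY2) with comp4941_c1 (WRKY34), comp6413_c0 (WRKY15) with comp6413_c1 (WRKY7), and comp10109_c0 (WRKY15) with comp10109_c1 (WRKY7). The table holds no sequences, and no WRKY sequence is shown.

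Leaf, flower and fruit labels matched single markers, which were picked by ID after their values were seen. The Rubisco small subunit RBCS (comp23363_c0) was at 1.5 and 3.43 CPM (counts scaled to library size, adjusted by the trimmed mean of M values, TMM) in root, 2521 and 851 in fruit, 31520 and 31350 in leaf and 287 and 425 in flower. The petal and stamen factor GLO (comp18082_c0) stood at 1007 and 764 CPM in flower and at or under 0.0513 CPM in each other library. The ovule factor AGL11 (comp4517_c0) stood at 33.2 and 41.9 CPM in fruit and at or under 0.933 elsewhere. Lists of flower and fruit markers by symbol, which also matched unrelated symbols, did not follow the labels. The flower list summed to 86.0 and 153 CPM in root, 609 and 324 in fruit, 5211 and 4190 in leaf and 1610 and 1207 in flower. The fruit list summed to 4964 and 2358 CPM in root, 1816 and 7041 in fruit, 4570 and 3937 in leaf and 4937 and 5274 in flower. For root the match of single markers was weaker. The nitrate transporter NRT2.4 (comp22908_c0) stood at 10.8 and 72.3 CPM in root, 0.643 and 0.536 in fruit, 6.12 and 3.67 in leaf and 1.58 and 2.60 in flower, and the phosphate transporter PHT1-3 (comp11729_c0) at 0.303 and 16.2 CPM in root and at or under 0.0442 elsewhere. Replicate 1 of root was thus close to leaf in NRT2.4. A list of 16 root markers by symbol was not highest in root: it summed to 47.2 and 197 CPM in root, 152 and 102 in fruit, 560 and 335.5 in leaf and 105 and 95.2 in flower, and the 1 gene called in it, SHR (comp71194_c0), was lower in root and fruit. Root replicate 1 also had 59540 TPM summed over 100 heat shock genes, against 10680 in root replicate 2 and 1868 to 4231 in the other organs. Library totals lay between 30399492 and 49421130 estimated counts, with flower replicate 2 the lowest.

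**Figure D1:**
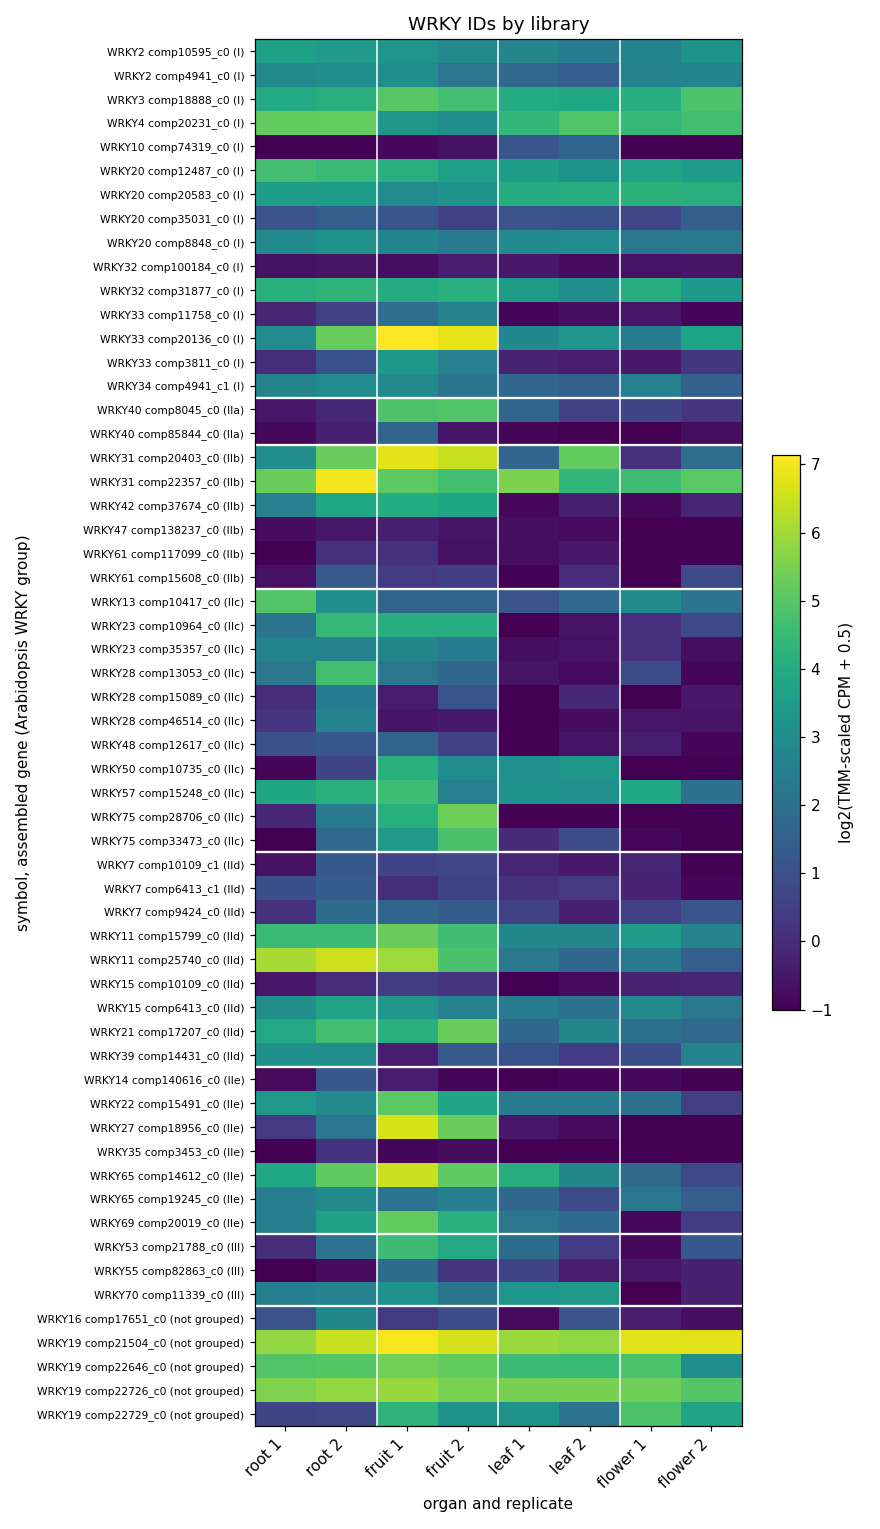
Level of the 58 WRKY IDs in the 8 libraries as log2(TMM-scaled CPM + 0.5), with 1 row per ID ordered by Arabidopsis group and number, and 1 column per library. Many rows are brighter in root and fruit than in leaf and flower, whereas 3 of the 4 WRKY19 rows are bright in all 8 columns; the other, comp22729_c0, is dim in root.

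By mean TMM-scaled CPM, 30 IDs were highest in fruit, 24 in root, 2 in leaf and 2 in flower. On the TPM scale, which divides by effective length, the counts were 27 in fruit, 28 in root, 3 in leaf and 0 in flower. Of the 57 IDs that passed the filter on low counts, 52.6% were highest in fruit and 40.35% in root by CPM, 3.51% in leaf and 3.51% in flower. Over all 27939 genes tested the shares were 19.1% in fruit, 26.65% in root, 25.8% in leaf and 28.5% in flower.

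**Figure D2:**
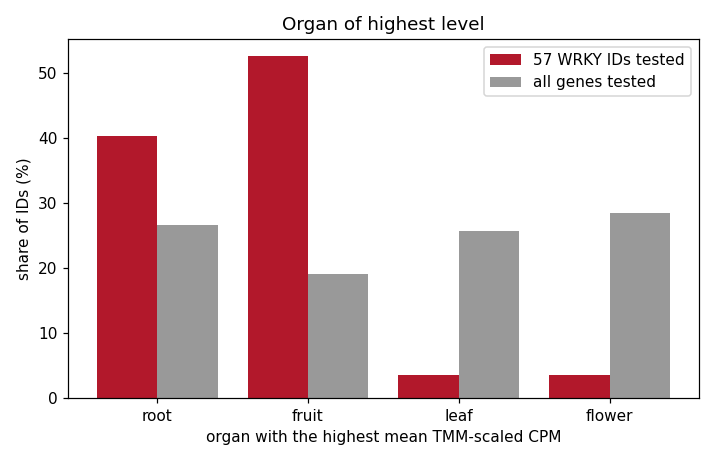
Share of IDs (%) by the organ with the highest mean TMM-scaled CPM, for the 57 WRKY IDs tested (red) and all genes tested (grey). Root and fruit hold 40.35% and 52.6% of the WRKY IDs, and leaf and flower 3.51% each.

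In fruit, both libraries lay above all others for 14 of the 57 IDs tested, 24.6%, where 6.65% of all genes tested did so. These were WRKY33 (comp20136_c0, comp3811_c0 and comp11758_c0), WRKY75 (comp28706_c0 and comp33473_c0), WRKY31 (comp20403_c0), WRKY19 (comp22646_c0), WRKY27 (comp18956_c0), WRKY11 (comp15799_c0), WRKY69 (comp20019_c0), WRKY22 (comp15491_c0), WRKY40 (comp8045_c0), WRKY53 (comp21788_c0) and WRKY15 (comp10109_c0). In root this held for 10 IDs, 17.5% against 11.3% of all genes, so that root was nearer to its background than fruit. They were WRKY11 (comp25740_c0), WRKY4 (comp20231_c0), WRKY20 (comp12487_c0), WRKY32 (comp31877_c0), WRKY2 (comp10595_c0), WRKY13 (comp10417_c0), WRKY28 (comp13053_c0 and comp46514_c0), WRKY39 (comp14431_c0) and WRKY7 (comp6413_c1). In leaf it held for 2 IDs, WRKY70 (comp11339_c0) and WRKY10 (comp74319_c0), 3.51% against 13.5% of all genes. In flower it held for 1, WRKY20 (comp20583_c0), 1.75% against 16.3% of all genes, which was highest in leaf on the TPM scale.

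The remaining IDs had a highest organ whose libraries overlapped those of another. Fruit was highest in mean for WRKY19 (comp21504_c0 and comp22726_c0), WRKY65 (comp14612_c0), WRKY3 (comp18888_c0), WRKY21 (comp17207_c0), WRKY23 (comp10964_c0), WRKY42 (comp37674_c0), WRKY50 (comp10735_c0), WRKY7 (comp9424_c0 and comp10109_c1), WRKY48 (comp12617_c0), WRKY55 (comp82863_c0), WRKY40 (comp85844_c0), WRKY61 (comp117099_c0), WRKY32 (comp100184_c0) and WRKY47 (comp138237_c0). Root was highest in mean for WRKY31 (comp22357_c0), WRKY57 (comp15248_c0), WRKY15 (comp6413_c0), WRKY20 (comp8848_c0 and comp35031_c0), WRKY2 (comp4941_c0), WRKY34 (comp4941_c1), WRKY65 (comp19245_c0), WRKY23 (comp35357_c0), WRKY16 (comp17651_c0), WRKY28 (comp15089_c0), WRKY61 (comp15608_c0) and WRKY14 (comp140616_c0). Flower was highest for WRKY19 (comp22729_c0), which was highest in fruit on the TPM scale. The ID removed by the filter, WRKY35 (comp3453_c0), had 0 and 0.632 CPM in root, 0.0438 and 0.0975 in fruit and no count in leaf or flower.

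Summed over the 58 IDs, WRKY transcripts took 505 and 1145 TPM in root, 1334 and 694 in fruit, 234 and 315 in leaf and 167 and 182 in flower. All 4 root and fruit sums lay above all 4 leaf and flower sums. Per TMM-scaled CPM the sums were 558 and 888 in root, 1239 and 903 in fruit, 371.5 and 360.3 in leaf and 405 and 367 in flower, again without overlap. In these bulk organ samples, fewer cells expressing a gene and less RNA per cell cannot be told apart.

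The replicates of root differed across the family. In root replicate 2, 50 of 57 IDs tested were higher than in replicate 1, 28 of them at a ratio of 2 or more, whereas over all genes tested 50.5% were higher in replicate 2. In fruit, 38 of 57 were higher in replicate 1, 66.7%, against 47.6% of all genes tested. Fruit replicates 1 and 2 also differed in other lists by symbol. Early stress regulators summed to 3004 and 1106 TPM and fruit markers to 1477 and 7114. The part of these differences, and of the heat shock and uptake differences between the root libraries, in the WRKY values was not tested.

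**Figure D3:**
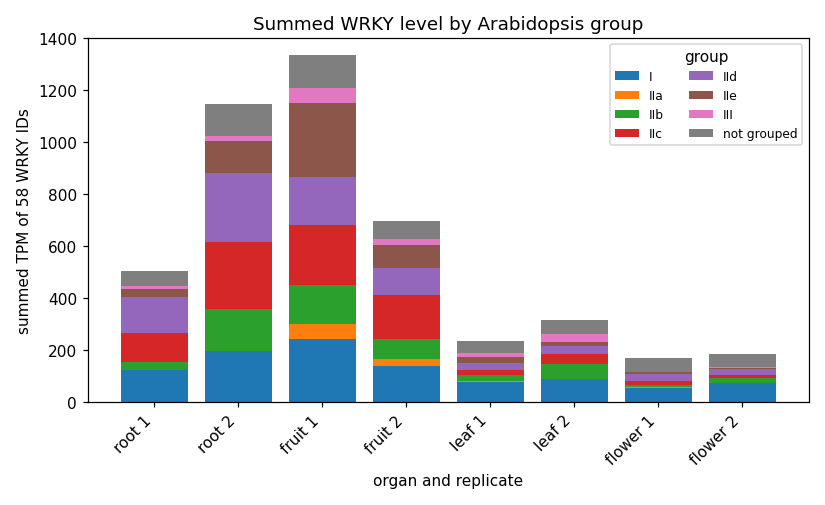
Summed TPM of the 58 WRKY IDs in each library, stacked by Arabidopsis group. Sums reach 505 to 1334 TPM in root and fruit and 167 to 315 TPM in leaf and flower, and the libraries of root and of fruit differ from each other.

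The most abundant IDs on the TPM scale are given by organ. In root the highest means were those of WRKY11 (comp25740_c0) at 84.6 ± 33.3 TPM, WRKY31 (comp22357_c0) at 50.4 ± 45.1 and WRKY48 (comp12617_c0) at 44.3 ± 14.7 (SD, n = 2), and WRKY48 rests on an effective length of 40.5 bases. In fruit they were WRKY27 (comp18956_c0) at 112 and 31.9 TPM, WRKY31 (comp20403_c0) at 93.4 and 49.8, and WRKY33 (comp20136_c0) at 81.7 and 47.2 in replicates 1 and 2. In leaf they were WRKY70 (comp11339_c0) at 13.4 and 30.8 TPM, WRKY31 (comp20403_c0) at 1.22 and 40.6, and WRKY19 (comp21504_c0) at 17.7 and 19.3. The length implied by the counts and TPM of WRKY70 varied 1.78-fold between libraries, from 277.5 to 493.8 bases, while its leaf libraries were even in CPM, at 9.01 and 9.79. In flower they were WRKY19 (comp21504_c0 and comp22729_c0) and WRKY31 (comp22357_c0), at 22.3 and 27.6, 14.9 and 10.7, and 6.77 and 11.0 TPM, and the implied length of comp22729_c0 varied 1.62-fold.

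Set against leaf and flower together, WRKY IDs were higher in root and fruit, or did not pass. Of 57 IDs tested, 15 were higher in root and fruit, 0 were lower and 42 did not pass. Over all genes tested, 7.42% were higher and 9.62% lower in this comparison. To pass, a gene needed a change of 1 log2 unit or more and an adjusted p below 0.05 in edgeR's quasi-likelihood test, with Benjamini-Hochberg adjustment across the 27939 genes. At an unadjusted p under 0.05, 31 WRKY IDs were higher and 2 lower, where 16.5% and 16.8% of all genes were. DESeq2 called 23 higher and 1 lower, where it called 11.4% and 13.0% of all genes. The fold change was positive for 52 of 57 IDs, with a median log2 fold change of 1.93 (the same with the ID at 0 set to its bound), against 0.10 over all genes tested. Without the 5 IDs named WRKY16 and WRKY19, 15 of 52 tested were higher and 0 lower.

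Every root and fruit library lay above every leaf and flower library for 15 of 57 IDs and below for 1, WRKY20 (comp20583_c0), against 7.09% above and 6.67% below over all genes tested. The IDs above were 12 of those called higher, with WRKY48 (comp12617_c0) and WRKY19 (comp22646_c0 and comp22726_c0). WRKY65 (comp14612_c0) and WRKY33 (comp20136_c0 and comp3811_c0) were called higher although their libraries overlapped. Fewer WRKY IDs, and fewer of all genes, passed without leaf replicate 1 and without both fruit replicate 2 and flower replicate 2. Not all WRKY IDs that passed without both were among those called with all libraries. The median log2 fold change of the WRKY IDs was 1.85 and 1.92 in these fits, against 0.17 and 0.12 over all genes.

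**Figure D4:**
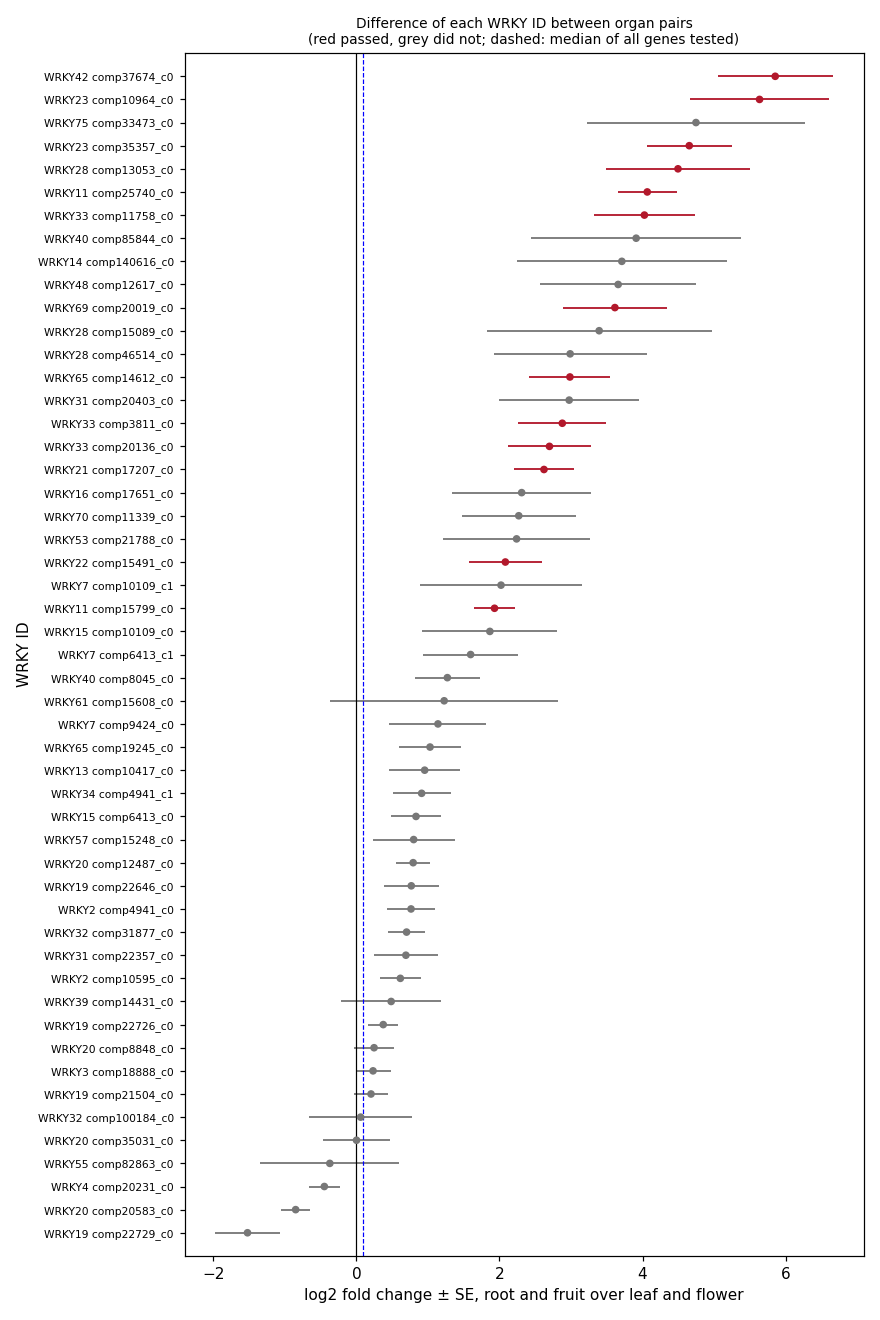
Log2 fold change of root and fruit over leaf and flower with its standard error for 51 WRKY IDs, 1 row each, with the 6 tested IDs that had no count in a whole organ left out. Red points passed and grey ones did not; 47 of the 51 points lie to the right of 0, and the dashed line is the median of all genes tested, 0.10.

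WRKY75, which in Arabidopsis acts in the phosphate starvation response and root hair growth, has 2 IDs. Its ID comp28706_c0 had 0.425 and 4.36 CPM in root and 16.8 and 39.8 in fruit, and no count in leaf or flower. It passed in root and fruit against leaf and flower (adjusted p = 0.0113). Counts pooled over root and fruit put it at least 654-fold higher, set against 3 counts over the leaf and flower libraries together. Most of these counts were from fruit, at 1151 and 1633 against 21 and 255 in root, so 654 is not a bound for root alone. Root over leaf and root over flower passed too, but were lost in most fits with 1 library left out. The other, comp33473_c0, had 0 and 2.96 CPM in root, 9.88 and 27.2 in fruit, 0.508 and 1.30 in leaf and 0.0659 and 0 in flower, and did not pass (log2 fold change 4.75 ± 1.52, adjusted p = 0.0751). Both fruit libraries of each ID lay above all others.

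WRKY42, which in Arabidopsis takes part in phosphate balance and leaf senescence, was low in both aerial organs taken at blossom. Its ID comp37674_c0 had 5.34 and 14.4 CPM in root and 15.9 and 13.6 in fruit, against 0.0662 and 0.326 in leaf and 0.0659 and 0.396 in flower. The groups did not overlap (log2 fold change 5.86 ± 0.80, adjusted p = 0.0053). WRKY23, an auxin-responsive factor of root growth in Arabidopsis, has 2 IDs and both passed. The longer, comp10964_c0, had 3.85 and 20.9 CPM in root and 16.3 and 16.4 in fruit, against 0 and 0.174 in leaf and 0.593 and 1.24 in flower (5.64 ± 0.98, adjusted p = 0.0111). The shorter, comp35357_c0, had 5.91 and 5.72 CPM in root and 6.0 and 4.73 in fruit, against 0.110 and 0.152 in leaf and 0.593 and 0.113 in flower (4.65 ± 0.60, adjusted p = 0.00433). It was the more even across the root and fruit replicates, and neither ID overlapped between the groups. The longer lost its call without either flower replicate.

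WRKY28, an activator of salicylic acid formation in Arabidopsis, was highest in root. Its ID comp13053_c0 had 4.21 and 25.0 CPM in root and 4.03 and 2.78 in fruit, against 0.177 and 0.0868 in leaf and 1.35 and 0.0565 in flower, and it was higher in root and fruit (4.50 ± 1.0, adjusted p = 0.0256). Root replicate 2 stood apart, and the call was lost without it, without either fruit replicate and without either leaf replicate. The short IDs comp15089_c0 and comp46514_c0 of the same symbol had 4.75 and 5.69 CPM in root replicate 2, and in other libraries no more than 1.66 and 0.688, and neither passed.

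Among factors of defence signalling, all 3 IDs named WRKY33 were highest in fruit. WRKY33 is a substrate of MAP kinases and an activator of antifungal defence in Arabidopsis. Its long ID comp20136_c0 had 7.08 and 37.2 CPM in root, 141 and 115 in fruit, 6.40 and 8.88 in leaf and 4.78 and 12.8 in flower (2.70 ± 0.58, adjusted p = 0.0229). Root replicate 1 lay within the range of leaf and flower. Of the short IDs, comp3811_c0 had 0.546 and 1.59 CPM in root, 9.57 and 5.29 in fruit, 0.353 and 0.261 in leaf and 0.231 and 0.735 in flower (2.88 ± 0.61, adjusted p = 0.022). The other, comp11758_c0, had 0.425 and 1.01 CPM in root, 3.29 and 5.75 in fruit, 0.0442 and 0.130 in leaf and 0.198 and 0.0565 in flower (4.03 ± 0.71, adjusted p = 0.0114). For all 3 the lead of fruit over leaf and over flower passed as well, and root against leaf or flower did not pass for any. The call of comp20136_c0 in root and fruit against leaf and flower was lost without any 1 of the fruit, leaf and flower libraries, that of comp3811_c0 without root replicate 2, flower replicate 1 or any 1 of the fruit and leaf libraries, and that of comp11758_c0 without leaf replicate 1.

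WRKY27 and WRKY22, group IIe factors tied to bacterial wilt symptoms and to flagellin signalling in Arabidopsis, were also highest in fruit. WRKY27 (comp18956_c0) had 0.769 and 4.12 CPM in root, 99.2 and 39.6 in fruit, 0.221 and 0.0868 in leaf and no count in flower. It passed (adjusted p = 0.00483), and it was at least 1230-fold higher in fruit than in flower and 8.79 ± 1.24 log2 units higher in fruit than in leaf (adjusted p = 0.0143). WRKY22 (comp15491_c0) had 10.1 and 6.73 CPM in root, 33.7 and 13.2 in fruit, 4.57 and 4.78 in leaf and 3.69 and 0.961 in flower. Its libraries did not overlap between the groups (2.08 ± 0.52, adjusted p = 0.0352). Of the other group IIe members, WRKY65 (comp14612_c0) and WRKY69 (comp20019_c0) had the order fruit, root, leaf, flower by their means, whereas the second WRKY65 ID, comp19245_c0, had means of 6.03 CPM in root, 4.54 in fruit, 2.08 in leaf and 3.16 in flower and did not pass. WRKY65 (comp14612_c0) had 14.3 and 35.2 CPM in root, 89.1 and 35.0 in fruit, 16.4 and 6.30 in leaf and 3.03 and 1.24 in flower (2.98 ± 0.57, adjusted p = 0.0149). WRKY69 (comp20019_c0) had 5.26 and 12.2 CPM in root, 35.8 and 17.6 in fruit, 4.11 and 3.10 in leaf and 0.0659 and 0.848 in flower (3.61 ± 0.73, adjusted p = 0.018). The call of WRKY22 was kept only without fruit replicate 2 or flower replicate 1, that of WRKY65 was lost without leaf replicate 2 or flower replicate 2, and that of WRKY69 without fruit replicate 1 or either leaf replicate. The lead of WRKY27 in fruit was lost over leaf without any 1 of the fruit and leaf libraries and over flower without either flower replicate.

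Of the group IId factors with a calmodulin-binding region, WRKY11 and WRKY21 were higher in root and fruit. WRKY11 limits basal resistance to bacteria in Arabidopsis. Its ID comp25740_c0 had 67.6 and 90.7 CPM in root and 60.6 and 27.5 in fruit, against 4.28 and 2.87 in leaf and 4.65 and 2.26 in flower, and had the lowest adjusted p of the family (4.07 ± 0.41, adjusted p = 0.00227). The other ID, comp15799_c0, had 23.1 and 23.6 CPM in root and 38.3 and 24.6 in fruit, against 6.49 and 5.95 in leaf and 10.5 and 5.71 in flower (1.93 ± 0.29, adjusted p = 0.00695). WRKY21 (comp17207_c0) had 14.5 and 25.0 CPM in root and 16.9 and 38.2 in fruit, against 2.76 and 6.06 in leaf and 3.56 and 2.94 in flower (2.62 ± 0.42, adjusted p = 0.00877). None of the 3 overlapped between the groups, and all 3 passed with each single library left out.

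**Figure D5:**
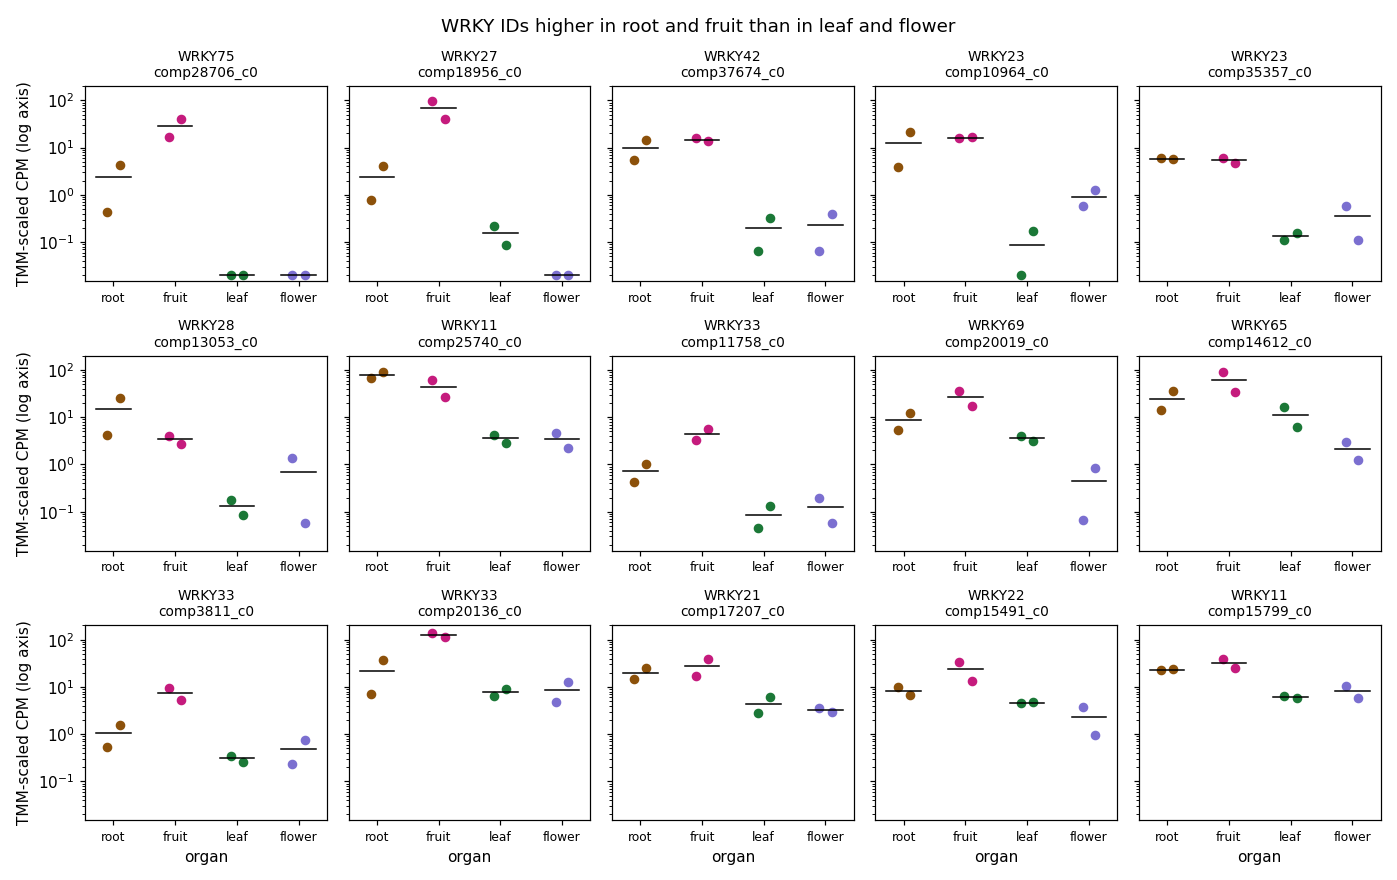
TMM-scaled CPM on a log axis for the 15 WRKY IDs higher in root and fruit, by organ, with 1 point per library and a line at the mean of 2 libraries; a count of 0 is drawn at 0.02. Root and fruit points lie above leaf and flower points except in WRKY65 (comp14612_c0) and WRKY33 (comp20136_c0 and comp3811_c0).

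Pairwise, the family leaned to root and fruit against each of leaf and flower, and the lean of root was smaller without root replicate 2. The WRKY median log2 fold change of root was 1.31 over leaf and 1.52 over flower. Without root replicate 2 it was 0.77 and 0.76, against -0.06 and 0 over all genes. Without root replicate 1 it was 1.70 and 1.75, against 0.01 and 0.09. Root against leaf had 8 IDs higher (14.0%) and 1 lower (1.75%) of 57 tested, where 4.45% and 7.92% of all genes were. Root against flower had 10 higher (17.5%) and 1 lower (1.75%), where 9.39% and 11.2% were. Fruit against leaf had 12 higher (21.1%) and 1 lower (1.75%), where 3.59% and 6.05% were. Fruit against flower had 16 higher (28.1%) and 2 lower (3.51%), where 6.65% and 8.06% were. These comparisons share libraries, and the share of WRKY IDs higher in root than in flower was the nearest to its background. With 1 library left out, fewer genes passed in most of these fits, among WRKY IDs and over all genes. Only fits whose WRKY count moved by over 1.5 times are listed. The counts are numbers of WRKY IDs, and the share of all genes higher follows each in brackets. Without root replicate 2, the share of WRKY IDs higher in root than in flower was near that of all genes. The IDs higher in root than in leaf were 3 without root replicate 2 (2.29%) or fruit replicate 1 (2.78%), 4 without fruit replicate 2 (2.82%), 1 without leaf replicate 1 (0.656%) or 2 (0.618%) and 5 without flower replicate 1 (2.97%) or 2 (2.84%). Those higher in root than in flower were 3 without root replicate 2 (4.54%), 6 without fruit replicate 1 (6.10%), leaf replicate 1 (4.37%) or leaf replicate 2 (4.47%), 4 without flower replicate 1 (1.64%) and 5 without flower replicate 2 (2.94%). Those higher in fruit than in leaf were 0 without fruit replicate 1 (1.35%) or 2 (0.301%) or leaf replicate 1 (0.104%), and without leaf replicate 2 no gene of the table passed there. Those higher in fruit than in flower were 4 without fruit replicate 1 (2.12%) or 2 (1.85%), 10 without leaf replicate 1 (2.85%) or 2 (2.96%), 1 without flower replicate 1 (0.658%) and 2 without flower replicate 2 (0.946%).

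Between root and fruit few WRKY IDs passed, and few of all genes did. Root against fruit had 1 ID higher and 1 lower (1.75% each), where 0.816% and 1.24% of all genes were. At an unadjusted p under 0.05, 4 (7.02%) were higher in root and 11 (19.3%) lower, where 8.27% and 9.89% of all genes were. DESeq2 called 2 higher and 9 lower, where it called 4.83% and 6.91% of all genes. WRKY40, which with its relatives represses abscisic acid and defence responses in Arabidopsis, was lower in root. Its ID comp8045_c0 had 0.202 and 0.444 CPM in root, 28.6 and 30.2 in fruit, 2.67 and 0.955 in leaf and 1.12 and 0.678 in flower. It was 6.49 ± 0.78 log2 units lower in root than in fruit (log2 fold change -6.49, adjusted p = 0.0199). It was higher in fruit than in leaf (4.02 ± 0.69, adjusted p = 0.0175) and than in flower (5.01 ± 0.73, adjusted p = 0.0103), with fruit the one high organ. The length implied by its counts and TPM varied 1.90-fold between libraries, from 579 to 1098 bases. The second WRKY40 ID, comp85844_c0, had 0.0607 and 0.342 CPM in root and 2.63 and 0.195 in fruit. These overlapped, and it did not pass. WRKY4, a factor of resistance to necrotrophic fungi in Arabidopsis, had the opposite order to comp8045_c0. Its ID comp20231_c0 had 35.7 and 36.3 CPM in root, 9.45 and 7.72 in fruit, 20.5 and 29.8 in leaf and 20.9 and 24.9 in flower. It was higher in root than in fruit (2.07 ± 0.32, adjusted p = 0.033), and lower in fruit than in leaf (-1.55 ± 0.31, adjusted p = 0.0281) and in flower (-1.42 ± 0.31, adjusted p = 0.0301). The difference of WRKY4 between root and fruit did not pass with any single library left out, and that of WRKY40 passed only without root replicate 2. The lead of WRKY40 in fruit was lost over leaf without any 1 of the fruit and leaf libraries and over flower without either flower replicate. The lower level of WRKY4 in fruit was lost without any 1 of the fruit, leaf and flower libraries, against flower also without root replicate 2, and under total-count scaling and both TPM scales.

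Leaf against flower had 3 IDs higher and 0 lower, where 10.0% and 9.32% of all genes were. At an unadjusted p under 0.05, 6 were higher and 4 lower in leaf, where 18.7% and 16.6% of all genes were. DESeq2 called 6 higher and 2 lower, where it called 14.8% and 14.5% of all genes. WRKY70, at the crossing of salicylic and jasmonic acid signalling in Arabidopsis, was low in flower alone. Its ID comp11339_c0 had 5.18 and 5.65 CPM in root, 8.36 and 4.02 in fruit, 9.01 and 9.79 in leaf and 0 and 0.339 in flower. It was higher in leaf than in flower (5.94 ± 1.32, adjusted p = 0.0243), in root than in flower (5.14 ± 1.28, adjusted p = 0.0347) and in fruit than in flower (5.33 ± 1.29, adjusted p = 0.0392). WRKY50, a factor of salicylic and jasmonic acid responses in Arabidopsis, had no count in flower. Its ID comp10735_c0 had 0.0405 and 1.11 CPM in root, 17.7 and 7.36 in fruit and 8.15 and 9.49 in leaf, and was at least 221-fold higher in fruit (adjusted p = 0.0285) and at least 141-fold higher in leaf (adjusted p = 0.0249) than in flower. WRKY10, an endosperm growth factor of Arabidopsis seeds, was found almost in leaf alone. Its ID comp74319_c0 had no count in root, 0.0584 and 0.146 CPM in fruit, 1.79 and 2.56 in leaf and no count in flower. It was at least 78.4-fold lower in root than in leaf (adjusted p = 0.0206), and at least 34.9-fold higher in leaf than in flower (adjusted p = 0.0214). The differences of WRKY50 and WRKY10 between leaf and flower were lost without any 1 of those libraries and that of WRKY70 without either leaf replicate. The lead of WRKY70 in root over flower was lost without any 1 of the root, fruit and leaf libraries. WRKY10 between root and leaf was lost without any 1 of those libraries, and WRKY50 and WRKY70 between fruit and flower each passed in only 2 of 8 and 1 of 8 fits with a library left out.

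Several abundant IDs did not pass between root and fruit and leaf and flower. WRKY20 (comp20583_c0) had 11.0 and 11.2 CPM in root and 7.16 and 8.43 in fruit, against 15.9 and 16.3 in leaf and 18.1 and 16.9 in flower. Its libraries did not overlap, and its log2 fold change of -0.85 ± 0.21 (adjusted p = 0.0332) stayed under the required size, while fruit against flower passed (-1.17 ± 0.29, adjusted p = 0.0437) but with no single library left out. WRKY19 (comp21504_c0), the ID with the highest mean CPM of the family, had 55.7 and 86.9 CPM in root, 131 and 95.8 in fruit, 59.3 and 54.2 in leaf and 106 and 109 in flower (0.20 ± 0.24, adjusted p = 0.618). WRKY19 (comp22729_c0), described as a kinase, had 1.09 and 1.16 CPM in root, 19.1 and 8.31 in fruit, 8.54 and 3.82 in leaf and 28.5 and 12.9 in flower, and was lower in root than in flower (-4.19 ± 0.71, adjusted p = 0.0114), a call lost without either root replicate or flower replicate 1. WRKY31 (comp22357_c0) had 38.0 and 128 CPM in root, 33.4 and 25.1 in fruit, 45.8 and 19.95 in leaf and 24.1 and 32.7 in flower, with root replicate 2 above all others (0.69 ± 0.45, adjusted p = 0.334). WRKY31 (comp20403_c0) had 7.75 and 37.7 CPM in root, 112.5 and 87.6 in fruit, 2.65 and 35.9 in leaf and 0.560 and 3.33 in flower, and did not pass (2.97 ± 0.98, adjusted p = 0.0798). Its leaf replicates were 2.65 and 35.9 CPM, and the length implied by its counts and TPM ran from 773 to 1595 bases between libraries.

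By Arabidopsis group, 4 of 6 IDs of group IIe tested were higher in root and fruit, 4 of 11 of group IIc, 3 of 9 of group IId, 3 of 15 of group I and 1 of 6 of group IIb. In groups IIa, III and in the ungrouped WRKY16 and WRKY19, 0 of 2, 0 of 3 and 0 of 5 passed. At an unadjusted p under 0.05 the numbers higher in these were 2, 1 and 1. For all genes tested, the share higher against leaf and flower was 7.42%, and 16.5% at an unadjusted p under 0.05. The median log2 fold change was 4.10 in group IIc, 3.30 in group IIe, 3.25 in group IIb, 1.87 in group IId and 0.61 in group I. It was 2.59 in group IIa, 2.24 in group III and 0.37 in the ungrouped IDs. The groups were small, and differences between them were not tested. The group IIe sum had 33.7 and 124 TPM in root, 287 and 90.5 in fruit, 21.4 and 14.0 in leaf and 6.77 and 4.13 in flower, and the group IIc sum had 115 and 259, 229.5 and 166, 20.6 and 36.2, and 18.9 and 9.17 TPM in the same order of organs.

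Genes that act with WRKY factors were counted by symbol in the same comparison, where 7.42% of all genes tested were higher in root and fruit and 9.62% lower. Among MAP kinase cascade genes, 2 of 27 tested (7.41%) were higher, 5 (18.5%) were lower and 20 did not pass, with a median log2 fold change of 0.29. MKK5 (comp20815_c0), a MAP kinase kinase upstream of WRKY factors in defence, had 27.2 and 23.8 CPM in root, 190.4 and 67.4 in fruit, 34.7 and 12.2 in leaf and 3.99 and 1.92 in flower (2.78 ± 0.51, adjusted p = 0.0133). NTF3 (comp21251_c1), a MAP kinase by symbol, was higher too (1.97 ± 0.43, adjusted p = 0.0235), and MPK9 (comp9760_c0, -1.92 ± 0.26, adjusted p = 0.0054) and MPK8 (comp18654_c0, -2.13 ± 0.34, adjusted p = 0.00856) were lower. VQ proteins bind WRKY factors, and of 3 IDs named MKS1 or SIB1, 0 passed in either direction, with 1 higher at an unadjusted p under 0.05.

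Among salicylic acid genes, 4 of 16 tested (25.0%) were higher, 1 (6.25%) was lower and 11 did not pass, where 7.42% and 9.62% of all genes were. TGA21 (comp21157_c0, 1.17 ± 0.26, adjusted p = 0.0266) and TGA1B (comp22896_c0, 1.25 ± 0.22, adjusted p = 0.0115), basic leucine zipper factors, were higher. ICS2 (comp1950_c0), an isochorismate synthase at the entry to salicylic acid, had 0.0607 and 0.0854 CPM in root and 0.628 and 0.658 in fruit, against 5.78 and 8.38 in leaf and 0.362 and 0.735 in flower (-3.15 ± 0.47, adjusted p = 0.00698), so that leaf was the high organ. Among jasmonic acid genes, 5 of 31 (16.1%) were higher, 4 (12.9%) were lower and 22 did not pass. LOX1.5 (comp20517_c0, 2.74 ± 0.33, adjusted p = 0.00341), a lipoxygenase, and OPR3 (comp18827_c0, 1.56 ± 0.38, adjusted p = 0.0323), a reductase of jasmonic acid formation, were higher. The repressor TIFY10A (comp16848_c0, -2.19 ± 0.26, adjusted p = 0.00341) and the methyltransferase JMT (comp13010_c0, -5.19 ± 0.68, adjusted p = 0.00471) were lower, and JMT reached 103 CPM in each leaf library.

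Among pathogenesis-related genes by symbol, 4 of 24 (16.7%) were higher, 4 (16.7%) were lower and 16 did not pass, where 7.42% and 9.62% of all genes were, and the pattern also matched names of other function, such as TLP40 (comp6494_c0). CHI4 (comp17606_c0), a chitinase by symbol, had 3.26 and 2.08 CPM in root and 66.1 and 32.4 in fruit, against 1.02 and 0.673 in leaf and 0.461 and 0.0565 in flower (4.55 ± 0.58, adjusted p = 0.00421). PRP1 (comp21342_c0, 2.23 ± 0.53, adjusted p = 0.0312) was higher too. TLP40 (-1.92 ± 0.23, adjusted p = 0.00369) and TLP1 (comp19891_c0, -1.19 ± 0.32, adjusted p = 0.0463) were lower. Among early stress regulators, 11 of 41 (26.8%) were higher, 5 (12.2%) were lower and 25 did not pass. PUB23 (comp13531_c0), a ubiquitin ligase of defence, had 2.17 and 8.56 CPM in root and 119 and 40.2 in fruit, against 0.177 and 0 in leaf and 0.132 and 0.0565 in flower (7.74 ± 1.0, adjusted p = 0.0045). ERF1B (comp13169_c0), an ethylene response factor, had 0.789 and 1.44 CPM in root and 47.1 and 24.3 in fruit, against 0 and 0.0434 in leaf and 0.231 and 0 in flower (6.78 ± 0.90, adjusted p = 0.00477). The summed level of the early stress list was 489 and 770.5 TPM in root, 3004 and 1106 in fruit, 650 and 621 in leaf and 1571 and 1243 in flower, and its part in the WRKY values was not tested. Among heat shock genes, 29 of 93 (31.2%) were higher and 3 (3.23%) lower, and their part in the WRKY values of root was not tested either.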

How the data were processed

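Per the labels' protocols, poly(A) RNA of each organ was selected, fragmented and read paired-end on an Illumina HiSeq instrument. Per the file headers, the authors deposited estimated counts, TPM and RPKM per gene of a de novo assembly, with length and effective length; the sources used here name no assembler, aligner or counting tool. The deposited RPKM values were not used, and the deposited TPM values served for levels between genes. Of each library's count values, 97.98% or more lay within 0.005 of a whole number. Counts were rounded and tested with edgeR 4.0.16 (R 4.3.3; limma 3.58.1; quasi-likelihood, TMM, filterByExpr by organ, 1 fit over 8 libraries with organ as the only term). The filter kept 27939 of 30177 genes, with 4 residual degrees of freedom. DESeq2 1.42.0, limma on log2(TPM + 1) and log2(TPM + 0.1), 2 other scalings, no filter, a replicate block and libraries left out were alternatives. Standard errors come from the fold change and F statistic, and a bound ("at least") takes 3 counts for the organ or organs at 0, for counting error only. The members and lists were chosen with earlier results of these data known. Named WRKY IDs are those that passed root and fruit against leaf and flower, the 3 highest by TPM in each organ, up to 3 each way with the largest change in each pair of organs at 1 CPM or more, and IDs at 0 in an organ; IDs outside that rule were named to give the organ of every member. From each gene list, up to 2 higher and 2 lower genes with the highest mean were taken, and those shown were picked among them. The lists for petal and stamen, fruit and root markers matched unrelated symbols, and the closing section gives their counts. The main fit did not pair libraries by replicate number, and whether the numbers mark pairs is not known.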

Additional observations from a re-analysis of the deposited data

How the results depend on the processing

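All 15 IDs higher in root and fruit kept their call under each of the 7 alternative settings, and 7 of them also with each single library left out, all 15 with the same direction in all 15 fits. Counts of WRKY IDs that moved by over 1.5 times follow. For root and fruit against leaf and flower, 1 was lower with DESeq2 (13.0% of all genes), on log2(TPM + 1) (8.31%), on log2(TPM + 0.1) (7.65%) and with a replicate block (9.60%). In that comparison 26 were higher under total-count scaling, 23 with DESeq2 and 28 on log2(TPM + 1). Those settings moved the background as well: 15.6%, 11.4% and 16.3% of all genes were higher, and the median of all genes stood at 0.66 under total-count scaling, 0.47 on log2(TPM + 1) and 0.61 on log2(TPM + 0.1), with the WRKY median 1.86, 0.93 and 1.83 above it and 1.83 above it under TMM. Root against leaf had 16 higher with DESeq2 (9.39% of all genes), and lower 4 with DESeq2 (12.1%), 2 on log2(TPM + 1) (7.99%) and 2 with a replicate block (7.67%). Root against flower had 18 higher under total-count scaling (16.9%), with DESeq2 (14.8%) and on log2(TPM + 0.1) (23.3%), and 21 on log2(TPM + 1) (22.6%), where 9.39% were higher under TMM. Fruit against leaf had 20 higher (9.44%) and 2 lower (10.8%) with DESeq2 and 0 lower under total-count scaling (4.27%). Fruit against flower had 0 lower under total-count scaling (4.85%), on log2(TPM + 1) (5.68%) and on log2(TPM + 0.1) (5.72%). It had 1 lower without the filter (5.87%) and with the block (7.85%). Root against fruit had 0 higher under total-count scaling (0.719%) and on log2(TPM + 0.1) (2.36%) and 2 with DESeq2 (4.83%). It had lower 9 with DESeq2 (6.91%), 3 on log2(TPM + 1) (2.53%) and 2 with the block (0.966%). Leaf against flower had 6 higher (14.8%) and 2 lower (14.5%) with DESeq2 and 1 lower with the block (9.08%).

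With each library left out in turn, calls were fewer in most fits, among WRKY IDs and over all genes. Calls of WRKY IDs in fruit against leaf were lost without any 1 of the fruit and leaf libraries. Median log2 fold changes of the WRKY IDs follow as ranges, with those of all genes in brackets. They were 1.26 to 2.04 (-0.01 to 0.22) for root and fruit against leaf and flower. For root they were 0.77 to 1.70 (-0.06 to 0.15) against leaf and 0.76 to 1.97 (0 to 0.31) against flower. For fruit they were 1.01 to 1.67 (-0.12 to 0.01) against leaf and 1.59 to 3.24 (0.06 to 0.27) against flower. Root against fruit had -0.96 to 0.10 (-0.12 to 0.06), and leaf against flower -0.10 to 0.13 (0 to 0.23). An organ with 1 library left is assumed to vary like the others. Another alternative, added after the data were seen, left out both fruit replicate 2 and flower replicate 2. Its median log2 fold changes of the WRKY IDs were 1.92, 1.24, 1.74, 1.80, 2.01, -0.69 and 0 in the same order of comparisons. Its numbers of WRKY IDs called higher and lower follow in that order too. These numbers were 5 and 0, 3 and 1, 2 and 1, 0 and 0, 0 and 0, 0 and 0, and 0 and 0. No gene of the table passed in the last 4 comparisons. WRKY4 (comp20231_c0) turned direction in root and fruit against leaf and flower, which it did not pass, at 0.10 under total-count scaling, 0.11 on log2(TPM + 1) and 0.0791 on log2(TPM + 0.1). Deviations of same-numbered libraries from their organ means correlated at -0.16 to 0.49 over the 6 pairs of organs, with 4 pairs over 0.1. Whether same-numbered libraries belong together is thus not settled. The main fit took no pairs, and the replicate block was the alternative. With the block, 17 WRKY IDs were higher and 1 lower in root and fruit, where 6.73% and 9.60% of all genes were. The cause of these changes was not tested. With 2 libraries per organ, small differences and IDs under about 1 CPM were not detectable reliably.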

Other observations

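In the same comparison of root and fruit with leaf and flower, 2 other families of plant factors linked to stress were counted by symbol. Over all genes tested, 7.42% were higher in root and fruit and 9.62% lower. Of 30 NAC factors tested, 5 (16.7%) were higher, 0 were lower and 25 did not pass, with a median log2 fold change of 0.88; at an unadjusted p under 0.05, 1 was lower, where 16.8% of all genes were. NAC100 (comp18048_c0) had 65.3 and 69.9 CPM in root and 71.7 and 38.7 in fruit, against 34.1 and 22.9 in leaf and 23.4 and 21.5 in flower. Of 42 ERF factors tested, 11 (26.2%) were higher, 6 (14.3%) were lower and 25 did not pass, with a median of 0.83. ERF003 (comp7054_c0) had 14.2 and 20.2 CPM in root and 108 and 35.2 in fruit, against 1.94 and 1.74 in leaf and 6.39 and 5.71 in flower, and ERF061 (comp15980_c0) had 0.0405 and 0 CPM in root and 18.9 and 18.0 in fruit, against 17.9 and 16.4 in leaf and 12.1 and 11.0 in flower. Differences between the families were not tested. Among the photosynthesis genes used as leaf markers, 12 of 20 tested (60.0%) were lower in root and fruit and 0 were higher (0 at an unadjusted p under 0.05). By symbol, the lists for petal and stamen, fruit and root markers had 2 of 8 (25.0%), 10 of 57 (17.5%) and 0 of 14 genes higher and 3 (37.5%), 9 (15.8%) and 1 (7.14%) lower; in the root list 0 were higher and 3 lower at an unadjusted p under 0.05. These lists matched unrelated symbols.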
